A study of Mus musculus with 6 samples.

Results

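The proteasome genes described here are 36 genes, chosen by symbol: the 14 subunits of the constitutive 20S core, 17 subunits of the 19S regulatory particle, the 4 activator genes Psme1 to Psme4 and the assembly factor gene Pomp. All 36 were found among the 55416 genes of the count files, and all 36 passed the low-count filter, which kept 14926 genes. The RNA came from wild-type (WT) CD3+ T cells isolated from the spleen of C57BL/6 hosts, with 3 libraries from allograft recipients (a graft from a genetically different donor) and 3 from isograft recipients (a graft from a genetically identical donor). The isolated cells of both groups were kept in culture medium with serum before RNA extraction. The sources used here do not give the grafted organ, the donor strain, the age of the mice, the time after grafting or the length of culture. The labels do not say that the 3 libraries of a group are from different animals, and the spread behind each p-value, taken between libraries, may be technical.

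The proteasome is the protease that degrades ubiquitin-tagged proteins. Its core is a stack of rings, the outer rings made of alpha subunits, which gate the entrance, and the inner rings of beta subunits, of which Psmb5, Psmb6 and Psmb7 carry the chymotrypsin-like, caspase-like and trypsin-like active sites. The regulatory particle caps the core: its base holds a ring of ATPases that unfold the substrate, and its lid removes ubiquitin. In lymphocytes the catalytic subunits can be replaced by the interferon-inducible immunosubunits Psmb8, Psmb9 and Psmb10, and the core can be capped instead by PA28 (Psme1 with Psme2, or Psme3 alone in the nucleus) or by PA200 (Psme4).

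Proteasome genes were higher in allograft than in isograft libraries across all parts of the particle. Of the 36 genes, 33 rose and 0 fell (edgeR's quasi-likelihood test, adjusted p under 0.05 after Benjamini-Hochberg adjustment over all 14926 genes), against 28.7% of all genes that rose, 29.1% that fell and 57.8% called in either direction. The median log2 fold change of the 36 genes was 0.54, which is 1.46-fold, against -0.01 over all genes tested, and 30 of the 36 lay between 0.3 and 0.9. The shift was shared but modest: 1 of the 36 genes, Psme3, rose at least 2-fold, against 10.1% of all genes tested. In 33 of the 36 genes the 3 allograft libraries did not overlap the 3 isograft libraries, against 63.3% of all genes.

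**Figure D1:**
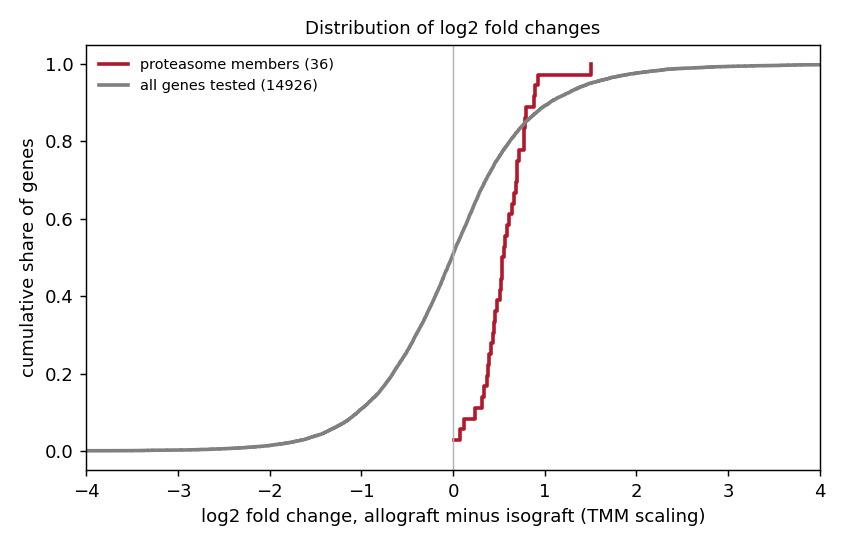
Cumulative share of genes (vertical axis) by log2 fold change, allograft minus isograft (horizontal axis), for the 36 proteasome genes (red) and all 14926 genes tested (grey). The red curve climbs within a narrow range around its median of 0.54, while the grey curve, with a median of -0.01, has wider tails on both sides and crosses it near the top of the red range.

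Summed over the 36 genes, the libraries held 8660, 8630 and 8327 TMM-scaled CPM in allograft replicates 1, 2 and 3, and 5908, 5891 and 5898 CPM in isograft replicates 1, 2 and 3 (CPM is a count scaled to library size, here with trimmed mean of M values, or TMM, factors). The groups were far apart and the isograft libraries nearly equal. Its size depended on how libraries were scaled. When libraries were scaled by their totals alone, the all-gene median shifted by -0.22 (log2), the median of the 36 genes was 0.32, 25 of them rose and 1, Psme4, fell, against 19.9% of all genes that rose. Single-gene counts behind these values ran from 325 to 59013 per library.

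Cell type markers also differed between the groups, and their part in the result was not tested. The counts of markers called below stand beside 28.7% of all genes that rose and 29.1% that fell. The 8 T cell marker genes summed to 1116 ± 51.7 CPM in allograft and 1521 ± 42.2 CPM in isograft libraries (SD, n = 3), with 1 of 8 higher and 5 lower. The 8 B cell marker genes summed to 1572 ± 77.8 CPM in allograft and 1253 ± 61.8 CPM in isograft libraries, with 4 higher and 3 lower. The gap between the sums came mainly from Fcer2a, at 352.0 to 392.2 CPM in allograft and 52.0 to 53.9 CPM in isograft libraries, while Cd79a, Cd79b and Blk fell (-0.78, -0.87 and -0.55). The T cell genes Cd3d, Cd3e and Cd3g were present in every library. Plasma cell markers summed to 767.1 to 866.7 CPM in allograft and 219.8 to 230.4 CPM in isograft libraries (3 of 5 higher, 1 lower), mainly through Irf4. Of the others, Sdc1 fell (-1.52), Jchain was not called (-0.21), and Prdm1 and Xbp1 rose (0.51 and 0.19). Dendritic markers summed to 74.2 to 79.2 CPM in allograft and 31.9 to 33.9 CPM in isograft libraries (1 of 5 tested higher, 0 lower), mainly through Zbtb46. Macrophage markers summed to 70.4 to 80.5 CPM in allograft and 88.1 to 94.8 CPM in isograft libraries (1 of 8 higher, 3 lower), and NK markers to 44.4 to 50.4 CPM in allograft and 48.4 to 52.2 CPM in isograft libraries (0 of 5 higher, 1 lower). The 4 neutrophil and 5 erythroid markers were near 0, with sums of at most 9.14 and 1.34 CPM in allograft and 10.2 and 1.09 CPM in isograft libraries. Of these, 2 neutrophil and 3 erythroid markers did not pass the low-count filter and were not tested, and none of those tested was called. The 6 cycling genes, which mark dividing cells, summed to 641.8 ± 43.9 CPM in allograft and 568.1 ± 13.3 CPM in isograft libraries, with 2 higher and 2 lower. In such bulk RNA, fewer cells of a type and less RNA per cell cannot be told apart.

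**Figure D2:**
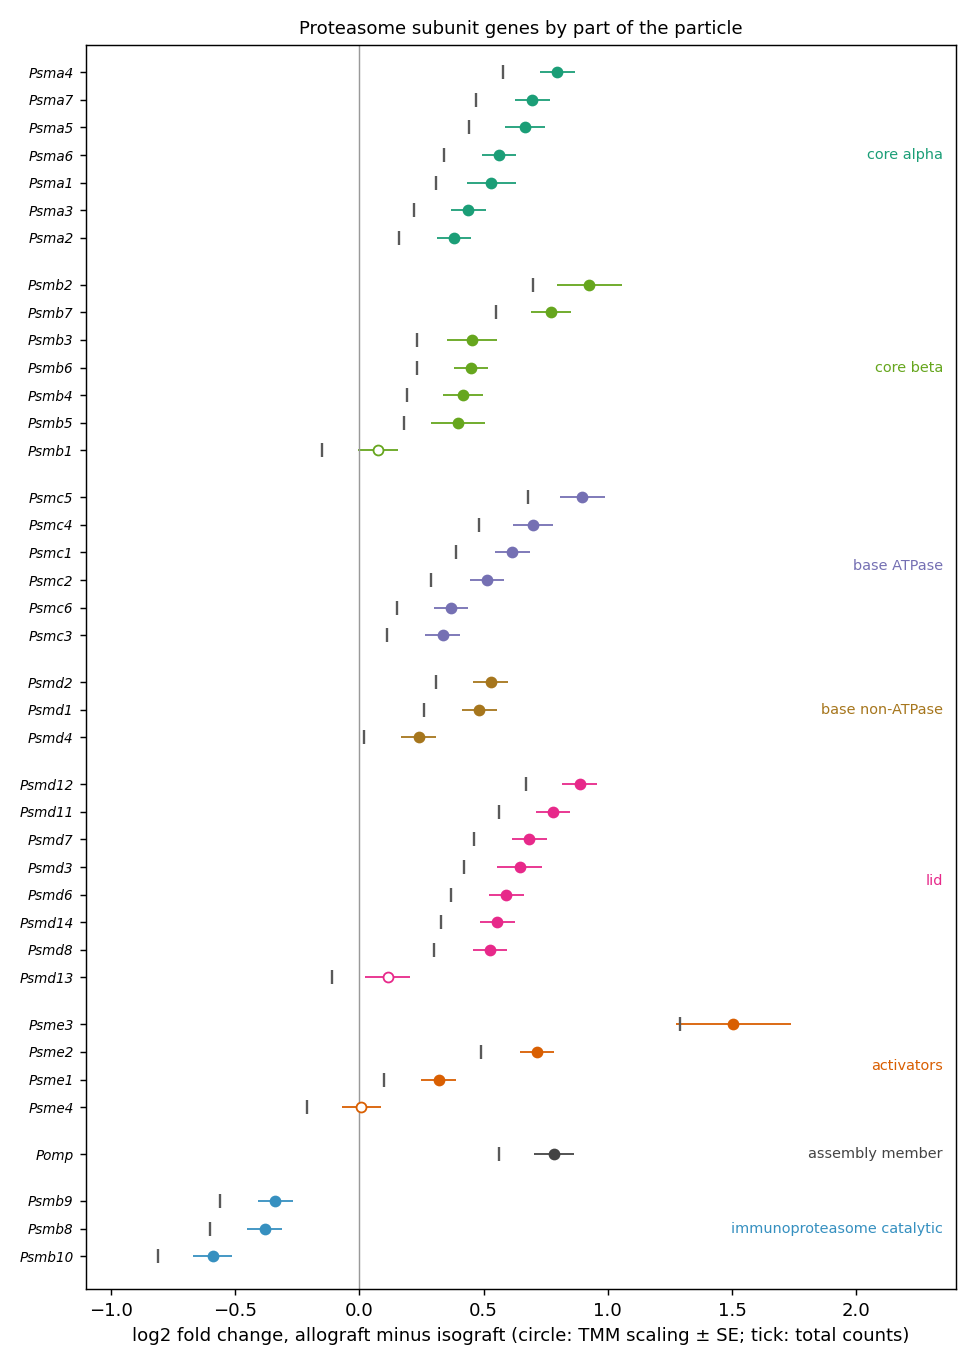
Log2 fold change, allograft minus isograft, of each of the 36 proteasome genes and of the 3 immunosubunit genes, by part of the particle, with TMM scaling (circles, bars are SE, open where the adjusted p was not under 0.05) and with total counts (grey ticks). The open circles are Psmb1, Psmd13 and Psme4, and the immunosubunits are the only circles left of 0.

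Promoters were read for 30 of the 36 genes, from RefSeq windows on GRCm38.p6. The set of windows used here held none for Psmb1, Psmb2, Psmb7, Psmc3, Psmd3 and Psmd7. The 250 bases before the annotated start were searched on both strands for TGACNNNGC, the core of the antioxidant response element that NRF1 and NRF2 bind, and for CCAAT, the box bound by NF-Y. The first was found in 4 of 30 proteasome promoters (13.3%), against 10.1% of 27025 promoters, and the second in 11 of 30 (36.7%), against 34.5%. Both shares are near the background. Printed 5′ to 3′ are the promoters of the 4 genes with the first motif, and of Psme3 and Psme4, the activators with the largest and smallest change, with either motif in capitals.
Psmb5: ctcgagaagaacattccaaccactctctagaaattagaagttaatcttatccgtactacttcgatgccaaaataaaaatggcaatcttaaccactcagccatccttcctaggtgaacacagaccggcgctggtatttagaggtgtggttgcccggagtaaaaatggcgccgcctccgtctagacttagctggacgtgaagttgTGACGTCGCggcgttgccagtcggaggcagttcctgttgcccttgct
Psmb6: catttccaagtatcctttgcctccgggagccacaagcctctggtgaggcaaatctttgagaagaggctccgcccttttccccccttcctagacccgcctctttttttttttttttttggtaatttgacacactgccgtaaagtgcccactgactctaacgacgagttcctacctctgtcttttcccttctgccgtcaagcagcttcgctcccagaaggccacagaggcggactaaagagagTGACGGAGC
Psmc6: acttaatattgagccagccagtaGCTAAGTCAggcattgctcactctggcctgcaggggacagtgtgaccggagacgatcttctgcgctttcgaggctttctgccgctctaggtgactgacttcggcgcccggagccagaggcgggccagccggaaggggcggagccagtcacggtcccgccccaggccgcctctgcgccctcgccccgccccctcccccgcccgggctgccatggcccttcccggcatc
Psmd12: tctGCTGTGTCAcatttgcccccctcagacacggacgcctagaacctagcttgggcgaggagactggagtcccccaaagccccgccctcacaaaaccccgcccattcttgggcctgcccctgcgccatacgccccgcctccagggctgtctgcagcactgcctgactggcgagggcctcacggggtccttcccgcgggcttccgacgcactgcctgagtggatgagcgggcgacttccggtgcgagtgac
Psme3: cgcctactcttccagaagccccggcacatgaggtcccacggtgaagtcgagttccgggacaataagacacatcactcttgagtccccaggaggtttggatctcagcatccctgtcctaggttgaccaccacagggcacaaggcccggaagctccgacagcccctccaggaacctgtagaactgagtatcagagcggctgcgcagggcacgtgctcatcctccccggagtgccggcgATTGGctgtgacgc
Psme4: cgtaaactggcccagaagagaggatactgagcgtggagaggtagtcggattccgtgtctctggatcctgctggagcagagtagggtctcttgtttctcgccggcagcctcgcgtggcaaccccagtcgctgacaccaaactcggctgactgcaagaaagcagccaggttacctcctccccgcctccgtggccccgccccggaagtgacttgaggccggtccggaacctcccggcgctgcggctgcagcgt
The windows are Psmb5 at chr14:54617996-54618245 (- strand), Psmb6 at chr11:70525107-70525356 (+ strand), Psmc6 at chr14:45329574-45329823 (+ strand), Psmd12 at chr11:107479278-107479527 (+ strand), Psme3 at chr11:101315963-101316212 (+ strand) and Psme4 at chr11:30771525-30771774 (+ strand). Counted back from the start, the matches lay at -47 to -39 in Psmb5 and -9 to -1 in Psmb6, and on the opposite strand at -227 to -219 in Psmc6 and -247 to -239 in Psmd12. Psme3 held a CCAAT box on the opposite strand at -14 to -10, and the Psme4 window held neither motif. The 4 genes with the first motif rose by 0.40, 0.45, 0.37 and 0.89, within the range of the genes without it. A match describes the letters and does not show binding.

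The 7 alpha subunit genes, which form the outer rings of the core, all rose, beside 28.7% of all genes. Their median log2 fold change was 0.56, with a range of 0.38 to 0.80. Psma4 rose most, at 644.7, 622.5 and 638.1 CPM in allograft libraries and 376.7, 346.7 and 373.2 CPM in isograft libraries (0.80 ± 0.07 SE, adjusted p = 4.9e-09). Psma7 (0.70) and Psma5 (0.67) followed, then Psma6 (0.56), Psma1 (0.53), Psma3 (0.44) and Psma2 (0.38). Psma2, at 120.7 to 128.8 CPM in allograft and 90.2 to 101.9 CPM in isograft libraries, was the alpha gene that did not pass under total-count scaling (0.16, adjusted p = 0.072). Transcript levels of the alpha genes were far from equal, although the ring holds them in equal numbers. Per kb of exon, mean levels ran from 24.7 (Psma1) to 268.0 (Psma4) CPM in allograft and from 17.1 (Psma1) to 154.2 (Psma4) CPM in isograft libraries.

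Of the 7 beta subunit genes 6 rose, beside 28.7% of all genes, with a median of 0.45. Psmb2, a structural subunit of the inner ring, had the second largest rise of the 36 genes. It stood at 19.6, 25.7 and 18.3 CPM in allograft and 11.3, 12.04 and 10.1 CPM in isograft libraries, 0.93 ± 0.13 on the log2 scale (adjusted p = 4.3e-06). Psmb1, another structural subunit, did not pass: its levels overlapped, at 59.4, 53.3 and 60.2 CPM in allograft and 57.5, 55.6 and 51.1 CPM in isograft libraries (0.07 ± 0.08, adjusted p = 0.44). Psmb3 and Psmb4, further structural subunits, rose by 0.45 ± 0.10 and 0.42 ± 0.08, and both calls were lost with total counts (adjusted p = 0.06 and 0.063).

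The 3 catalytic genes of the constitutive core rose, beside 28.7% of all genes. Psmb5, the chymotrypsin-like subunit, had 18.6, 19.3 and 15.6 CPM in allograft and 12.8, 13.3 and 14.6 CPM in isograft libraries (0.40 ± 0.11, adjusted p = 0.0054). That gap was narrow, and with total counts the call was lost (0.18, adjusted p = 0.19). Psmb6, the caspase-like subunit, had 76.2, 71.8 and 71.2 CPM in allograft and 56.2, 51.0 and 53.3 CPM in isograft libraries (0.45 ± 0.07, adjusted p = 3.5e-05). Psmb7, the trypsin-like subunit, had 67.3, 71.6 and 69.3 CPM in allograft and 37.6, 42.1 and 42.3 CPM in isograft libraries (0.77 ± 0.08, adjusted p = 5.5e-08). All allograft libraries were above all isograft libraries for these 3 genes, where 63.3% of all genes had no overlap in either direction.

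The 3 immunosubunit genes that take the same places in the core went the other way. Psmb8, the counterpart of Psmb5, fell to 205.5, 188.9 and 193.5 CPM in allograft libraries, against 250.3, 257.1 and 258.6 CPM in isograft libraries (-0.38 ± 0.07, adjusted p = 6.6e-05). Psmb9, the counterpart of Psmb6, fell to 139.8, 131.6 and 140.2 CPM in allograft, against 177.3, 162.4 and 181.2 CPM in isograft libraries (-0.34 ± 0.07, adjusted p = 0.00039). Psmb10, the counterpart of Psmb7, fell to 59.6, 50.6 and 61.8 CPM in allograft, against 91.6, 86.3 and 81.2 CPM in isograft libraries (-0.59 ± 0.08, adjusted p = 5.3e-06). These falls were larger with total counts (-0.60, -0.56 and -0.81), and 29.1% of all genes fell. Exons of an overlapping gene cover 14.7% of the exon length of Psmb8, and reads in such stretches go uncounted by the counting tool's defaults.

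Ratios within a library do not depend on the scaling, and each constitutive gene gained on its immune counterpart. These pairs were set side by side with the single-gene results known, so their tests are no independent support. Per kb of exon, the ratio of Psmb5 to Psmb8 was 0.340, 0.384 and 0.303 in allograft and 0.192, 0.194 and 0.212 in isograft libraries. For Psmb6 to Psmb9 it was 1.07, 1.07 and 0.992 in allograft and 0.620, 0.614 and 0.575 in isograft libraries. The caspase-like pair was thus near parity in allograft libraries per kb of exon only. In CPM not divided by length, Psmb6 stayed below Psmb9, with allograft means of 73.0 and 137.2. For Psmb7 to Psmb10 it was 0.563, 0.705 and 0.560 in allograft and 0.204, 0.243 and 0.259 in isograft libraries. In the 3 pairs the ratio was 1.71, 1.73 and 2.58 times higher in allograft libraries, with no overlap between groups (exact two-sided permutation p = 0.1 each, adjusted p = 0.1 over 4 ratios, and 0.1 is the smallest that 3 against 3 libraries can give). Per kb of exon, transcripts of the immunosubunits still exceeded their counterparts for the Psmb5 and Psmb7 pairs in every library. In CPM not divided by length, this held for the Psmb5 pair but not for the Psmb7 pair in allograft libraries. Mean CPM in allograft libraries was 69.4 for Psmb7 and 57.3 for Psmb10. The exon length covers all annotated exons of a gene, so levels per kb compare different genes only roughly. The levels are uncertain for Psmb5 (2 near-identical copies, and 12.1% of its exon length under Mir686), for Psmb6 (1 copy) and for Psmb7 (11.8% of its exon length under exons of Nek6). Among the counted genes, pseudogenes named after them number 1 for Psmb5, 2 for Psmb6 and 1 for Psmb7.

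**Figure D3:**
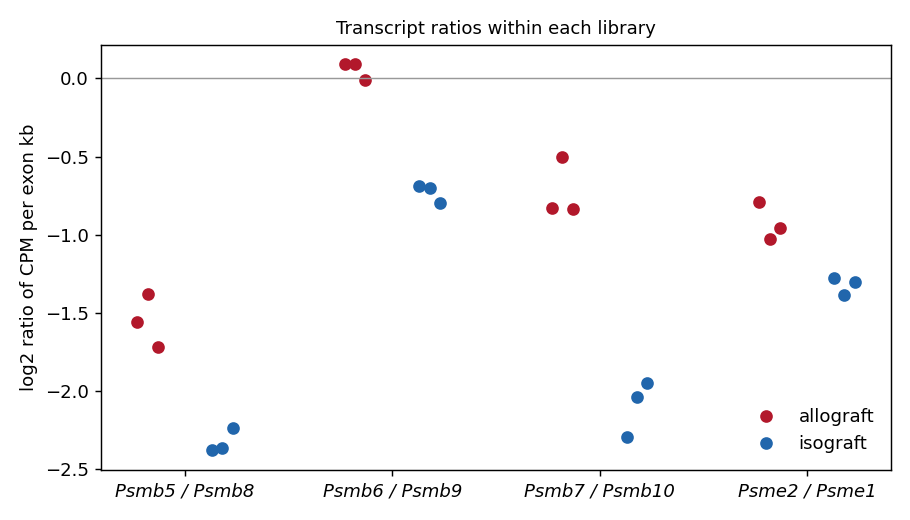
Log2 ratio of CPM per exon kb within each library for the 3 pairs of constitutive and immune catalytic subunits and for Psme2 to Psme1, with allograft libraries in red and isograft libraries in blue. In each of the 4 ratios the 3 allograft points lie above the 3 isograft points, with the widest gap for Psmb7 to Psmb10.

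All 9 base genes of the regulatory particle rose, beside 28.7% of all genes, with a median of 0.51. Among the 6 ATPases, which form the ring that unfolds substrates, Psmc5 rose most: it had 252.4, 228.6 and 192.8 CPM in allograft and 107.9, 126.2 and 127.6 CPM in isograft libraries (0.90 ± 0.09, adjusted p = 2.8e-07). Psmc4 (0.70), Psmc1 (0.62) and Psmc2 (0.51) came next, and Psmc6 (0.37) and Psmc3 (0.33) rose least. Under total-count scaling Psmc6 and Psmc3 did not pass (adjusted p = 0.1 and 0.16). Psmd1 and Psmd2 are the large scaffold subunits of the base. Psmd1 rose by 0.48 ± 0.07, and Psmd2, a docking site for shuttle receptors, had 440.0, 398.6 and 382.0 CPM in allograft and 268.4, 287.4 and 290.1 CPM in isograft libraries (0.53 ± 0.07, adjusted p = 3.4e-06). Psmd4, a ubiquitin receptor, had the smallest rise that passed among the 36 genes, 1.18-fold. It stood at 355.7, 349.8 and 333.2 CPM in allograft and 295.4, 306.1 and 278.4 CPM in isograft libraries (0.24 ± 0.07, adjusted p = 0.0055), and with total counts it was at 0.02 (adjusted p = 0.85).

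Of the 8 lid genes 7 rose, beside 28.7% of all genes, with a median of 0.62, the highest of the larger parts of the particle. Psmd12, a scaffold subunit of the lid, had 197.3, 199.2 and 185.9 CPM in allograft and 99.8, 102.2 and 113.1 CPM in isograft libraries (0.89 ± 0.07, adjusted p = 2.8e-09). Psmd14, the deubiquitinase that cuts ubiquitin chains from the substrate, had 111.6, 113.9 and 115.1 CPM in allograft and 76.3, 74.7 and 80.9 CPM in isograft libraries (0.56 ± 0.07, adjusted p = 1.2e-06). Both had tight replicates and well separated groups. The scaffold subunits Psmd11 (0.78), Psmd3 (0.65), Psmd6 (0.59) and Psmd8 (0.53) and the partner of the deubiquitinase, Psmd7 (0.68), rose too. Psmd13, also a scaffold subunit of the lid, did not pass, at 65.0, 51.6 and 62.3 CPM in allograft and 55.2, 56.3 and 53.9 CPM in isograft libraries (0.11 ± 0.09, adjusted p = 0.27). Allograft replicate 2 lay below all isograft libraries for Psmd13, and exons of Sirt3 cover 10.1% of its exon length.

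**Figure D4:**
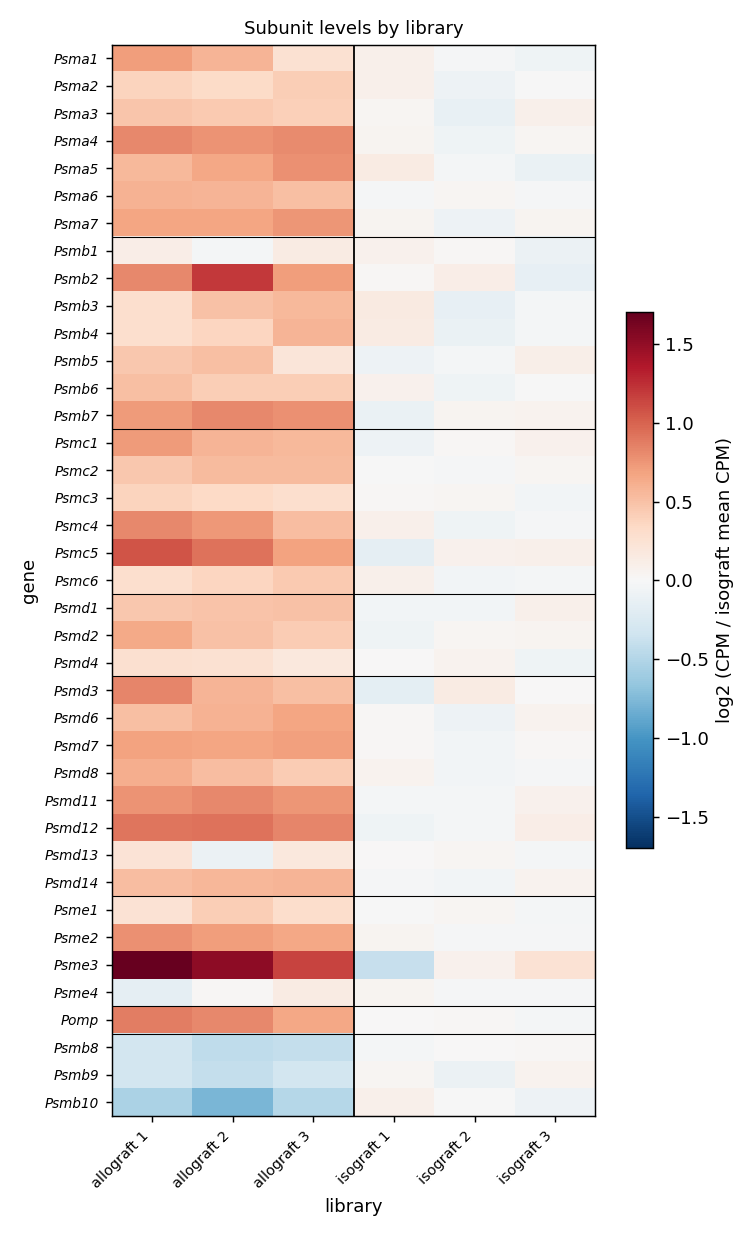
Log2 ratio of each library's TMM-scaled CPM to the isograft mean for the 36 proteasome genes, grouped by part of the particle, and for the 3 immunosubunit genes at the bottom, with allograft libraries left of isograft libraries. Red cells fill the allograft columns in nearly all member genes, darkest for Psme3, while Psmb1, Psmd13 and Psme4 stay pale and the immunosubunits are blue.

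The activators were the part with the widest spread, with log2 fold changes of 0.01 to 1.51. Psme3, the nuclear PA28 gamma subunit, had the largest change of the 36 genes (2.84-fold). It had 222.8, 187.9 and 145.4 CPM in allograft and 49.95, 68.4 and 77.5 CPM in isograft libraries (1.51 ± 0.23, adjusted p = 0.0028). Its libraries also varied most within a group, and with any 1 library left out its log2 fold change ran from 1.34 to 1.65. Only Psme3, Psma1 and Psmb2 of the 36 genes had a coefficient of variation over 15% in either group, against medians of 5.91% in allograft and 5.11% in isograft libraries.

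Psme1 and Psme2 encode the alpha and beta subunits of the cytoplasmic PA28 ring and lie next to each other on chromosome 14, on opposite strands with 5912 bases between them (Psme1 at 55815580 to 55818986 and Psme2 at 55824898 to 55828570, GRCm39). Psme2 had 774.4, 740.5 and 715.3 CPM in allograft and 466.1, 445.7 and 446.9 CPM in isograft libraries (0.72 ± 0.07, adjusted p = 2.2e-08). Psme1 had 1676, 1889 and 1740 CPM in allograft and 1417, 1456 and 1381 CPM in isograft libraries (0.32 ± 0.07, adjusted p = 0.00063), but did not pass under total-count scaling (0.10, adjusted p = 0.24). Psme1 was the most abundant of the 36 genes per kb of exon in both groups. The ratio of Psme2 to Psme1 per kb of exon was 0.579, 0.491 and 0.515 in allograft and 0.412, 0.384 and 0.405 in isograft libraries, higher in all 3 allograft libraries (exact two-sided permutation p = 0.1, adjusted p = 0.1). Both genes have near-identical copies in the genome (2 for Psme2, 1 for Psme1), and the counting tool by default drops reads with several matches, so both levels are uncertain.

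Psme4, the PA200 activator, known for its role in chromatin and DNA repair, did not pass. It had 52.2, 58.8 and 63.5 CPM in allograft and 59.5, 57.2 and 56.8 CPM in isograft libraries (0.01 ± 0.08, adjusted p = 0.94), and with total counts it was lower in allograft libraries (-0.21, adjusted p = 0.035). Its groups overlapped, with the allograft libraries on both sides of the isograft ones. Pomp, the chaperone that matures the core, had 116.6, 113.2 and 101.1 CPM in allograft and 64.4, 64.9 and 62.8 CPM in isograft libraries (0.78 ± 0.08, adjusted p = 2.6e-08), well separated.

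**Figure D5:**
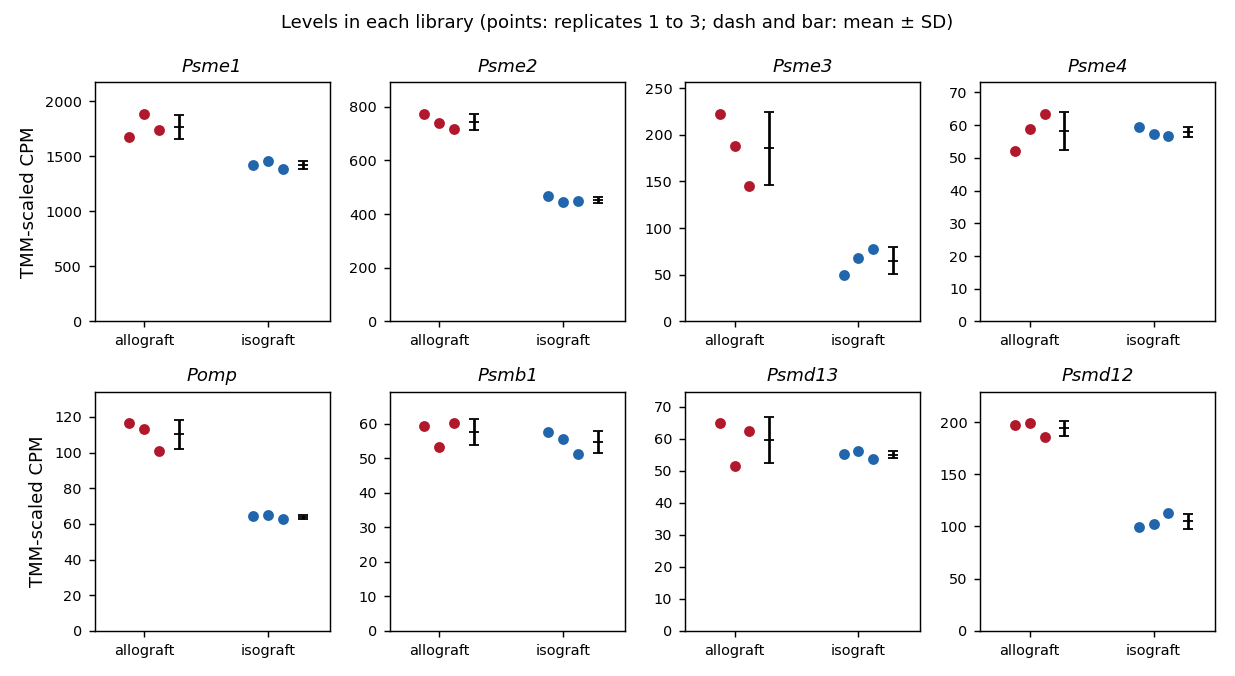
TMM-scaled CPM in each library for the 4 activator genes, Pomp, the 2 other members that did not pass (Psmb1 and Psmd13) and the lid gene Psmd12, with allograft libraries left of isograft libraries, points for replicates 1 to 3 and the mean ± SD beside them. The groups are apart for Psme1, Psme2, Psme3, Pomp and Psmd12 and overlap for Psme4, Psmb1 and Psmd13.

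Summed per kb of exon, 3 of 4 ratios between parts of the particle were lower in allograft libraries with no overlap between the groups. The 17 regulatory particle genes stood to the 14 core genes at 1.81, 1.73 and 1.64 in allograft and 1.69, 1.86 and 1.81 in isograft libraries, which overlap. Beta to alpha subunits stood at 0.294, 0.312 and 0.310 in allograft and 0.354, 0.349 and 0.345 in isograft libraries, so the beta share was lower in allograft libraries with no overlap. Psme1 with Psme2 stood to the core at 1.45, 1.55 and 1.43 in allograft and 1.62, 1.75 and 1.64 in isograft libraries, also lower without overlap. Base to lid stood at 2.20, 2.11 and 1.98 in allograft and 2.23, 2.37 and 2.24 in isograft libraries, lower without overlap as well. These are sums of RNA, not of protein, and the most abundant genes weigh most in them.

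Among the 36 genes 11 have at least 1 other annotated transcript of at least 90% identity over at least 50% of their length, most of all Psmb3 with 6, and their levels are uncertain. Of the 25 genes with no such copy 22 rose, beside 28.7% of all genes, and their median was 0.53. Psmb7, which has 1 named pseudogene, is among these 25 genes.

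Genes that work around the particle, taken from lists of the pathway, moved in part with it. The 4 dedicated assembly chaperones, which pair to build the alpha ring, all rose, against 28.7% of all genes, with a median log2 fold change of 1.00. Psmg1 had 33.5, 36.1 and 28.4 CPM in allograft and 16.2, 14.8 and 19.4 CPM in isograft libraries (0.96 ± 0.12, adjusted p = 6.7e-07). Its partner Psmg2 had 21.9, 24.0 and 21.3 CPM in allograft and 9.65, 8.98 and 8.51 CPM in isograft libraries (1.31 ± 0.11, adjusted p = 3.8e-09). Psmg3 rose by 1.04 ± 0.17 and Psmg4 by 0.60 ± 0.15 on the log2 scale (adjusted p = 3.6e-05 and 0.0036).

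Of 5 further genes of the regulatory particle 3 rose (28.7% of all genes did). They were Adrm1, a ubiquitin receptor (0.50 ± 0.09), Sem1, a small lid subunit (0.42 ± 0.09), and Psmd9, a chaperone of the base (0.31 ± 0.09), while the base chaperones Psmd5 (0.12 ± 0.10, adjusted p = 0.3) and Psmd10 (0.20 ± 0.09, adjusted p = 0.058) did not pass. With isograft replicate 1 left out, Psmd10 passed (0.29, adjusted p = 0.013), as it did under RLE scaling (adjusted p = 0.048). The calls of Sem1 and Psmd9 were lost with total counts (adjusted p = 0.057 and 0.46). Among 5 proteins that associate with the particle 4 rose, beside 28.7% of all genes: the deubiquitinases Usp14 (0.78 ± 0.10) and Uchl5 (0.44 ± 0.08), the scaffold Ecpas (0.34 ± 0.07) and the ubiquitin ligase Ube3c (0.26 ± 0.09). Psmf1, an inhibitor of the core, stood at -0.09 ± 0.11 (adjusted p = 0.53) and was lower with total counts (-0.31, adjusted p = 0.024). The calls of Ecpas and Ube3c were lost with total counts (0.12 and 0.04), and that of Ube3c also without allograft replicate 2 or 3 or isograft replicate 2 or 3 (adjusted p = 0.071, 0.08, 0.053 and 0.069). The testis subunit Psma8 and the thymus subunit Psmb11 did not pass the low-count filter, with at most 6 and 2 counts per library.

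Nfe2l1 encodes NRF1, the transcription factor that raises proteasome subunit genes when proteasome activity is limiting. It had 675.3, 614.3 and 546.7 CPM in allograft and 247.0, 302.3 and 334.8 CPM in isograft libraries (1.05 ± 0.10, adjusted p = 6.0e-07), and all allograft libraries were above all isograft ones. Ddi2 and Ngly1 encode enzymes that process the NRF1 protein into its active form. The protease gene Ddi2 stood at 0.04 ± 0.08 (adjusted p = 0.69) and the glycanase gene Ngly1 fell, to 9.002, 12.8 and 10.6 CPM in allograft, against 21.0, 16.9 and 18.4 CPM in isograft libraries (-0.80 ± 0.13, adjusted p = 3.0e-05). The related factor Nfe2l2 stood at 0.03 ± 0.08 (adjusted p = 0.74) and its inhibitor Keap1 at -0.13 ± 0.11 (adjusted p = 0.31). With total counts Ddi2, Nfe2l2 and Keap1 were lower in allograft libraries (-0.18, -0.19 and -0.35, adjusted p = 0.042, 0.046 and 0.0054), and Keap1 also without allograft replicate 1 (-0.28, adjusted p = 0.023).

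Delivery of substrates moved unevenly. Of 6 shuttle receptor genes, which carry ubiquitin-tagged proteins to the particle, 4 rose and 1 fell, against 28.7% and 29.1% of all genes. Rad23b led, at 230.1, 215.1 and 202.9 CPM in allograft and 109.5, 121.9 and 112.2 CPM in isograft libraries (0.92 ± 0.07, adjusted p = 2.3e-09). Ubqln4 rose by 0.82 ± 0.09, and the gene that fell, Ubqln2 (-0.79 ± 0.15), was named after its value was seen. Another riser, Ubqln1, is also named after its value was seen: it rose by 0.25 ± 0.09 (adjusted p = 0.025), and that call was lost under total-count scaling (0.03, adjusted p = 0.81) and when leaving out allograft replicate 1 or 2 or isograft replicate 1 or 2 (adjusted p = 0.11, 0.092, 0.13 and 0.069). Of 7 genes of the p97 unfoldase, which extracts proteins from complexes and membranes, 2 rose, or 28.57%, a share equal to the 28.7% of all genes. These were the adaptor Nsfl1c (0.54 ± 0.07) and the cofactor Ufd1 (0.32 ± 0.08, lost with total counts at an adjusted p of 0.31). The cofactor Nploc4 stood at 0.18 ± 0.08 (adjusted p = 0.056), and passed with RLE scaling (adjusted p = 0.046) and without isograft replicate 3 (0.27, adjusted p = 0.011). The cofactor Ubxn1 stood at -0.15 ± 0.07 (adjusted p = 0.087). It passed as lower in allograft libraries under total-count scaling (-0.37, adjusted p = 8.7e-05), when allograft replicate 1 was left out (-0.22, adjusted p = 0.018), when low counts were not filtered (-0.17, adjusted p = 0.044) and when genes had to reach 5 CPM in 3 libraries (-0.18, adjusted p = 0.037).

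Most genes of ubiquitin activation and conjugation rose, while the polyubiquitin gene Ubb did not pass. Ubb had 1244, 1177 and 1229 CPM in allograft and 1237, 1202 and 1153 CPM in isograft libraries (0.02 ± 0.07, adjusted p = 0.79), and with total counts it was lower in allograft libraries (-0.20, adjusted p = 0.015). The ubiquitin fusion gene Rps27a stood at 0.07 ± 0.30 (adjusted p = 0.87). It is uncertain, with 12 near-identical copies, and it passed with isograft replicate 1 left out (0.39, adjusted p = 0.0092). Of 7 genes of ubiquitin activation and conjugation 6 rose, where 28.7% of all genes did, among them Ube2n, which builds lysine-linked signalling chains, at 99.3, 88.7 and 99.97 CPM in allograft and 47.9, 51.6 and 50.2 CPM in isograft libraries (0.94 ± 0.08, adjusted p = 2.4e-09), Ube2s (0.85 ± 0.09) and Ube2d3 (0.62 ± 0.07). The activating enzyme Uba1 lost its call with total counts and without isograft replicate 2 (adjusted p = 0.054), and Ube2l3 with total counts (adjusted p = 0.3).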

How the data were processed

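Fragments were counted in 6 RNA-seq libraries. Per the file headers, the authors deposited whole-number counts per Ensembl gene (featureCounts 1.6.0 on HISAT alignments, Ensembl release 104, GRCm39). The submitters' notes list other builds, GRCm38 and mm10. The headers set no strand, multi-mapping or overlap option. Totals were 30066137 to 37821738 counts per library. Libraries of a group differed by more than sampling noise (chi-square over its degrees of freedom, 10.4 to 22.1).

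Genes passing filterByExpr (14926, holding 99.92% of counts) were TMM-scaled and compared by edgeR's quasi-likelihood F-test, robust, with Benjamini-Hochberg adjustment over all of them. Log2 fold changes are allograft minus isograft, each with an SE of its size over the root of F. The scripts were tested on simulated data. Near-identical copies were sought by blastn in GENCODE M21 transcripts. Gene symbols came from the Ensembl IDs (52083 of 55416 matched).

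Values in every library are given for the 3 largest and 3 smallest changes, the activators, Pomp, the catalytic subunits, Psmd2, Psmd4 and Psmd14, and, chosen after their values were seen, for Psma4, Psmd12 and the within-library ratios. From the pathway lists, all genes of lists of up to 5 and the 3 of smallest p in longer lists are named, except some genes that are not reported here. Members and lists were chosen with earlier results of these data known. Alternatives were RLE and total-count scaling, DESeq2 1.42.0, limma-voom (limma 3.58.1), no robust estimation, other filters, left-out gene classes, a replicate block and each library left out, all in R 4.3.3 with edgeR 4.0.16.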

Additional observations from a re-analysis of the deposited data

How the results depend on the processing

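Of the 36 proteasome genes, 33 rose and 0 fell under RLE scaling, DESeq2, limma-voom, no robust estimation, both other filters, the left-out immunoglobulin, hemoglobin and mitochondrial genes, the replicate block (33 rose, 0 fell, median 0.54) and with any 1 library left out (33 to 33 rose, 0 to 0 fell, median 0.53 to 0.56). With total counts 25 rose, 1 fell and the median was 0.32. In that setting 8 genes lost their call (Psma2, Psmb3, Psmb4, Psmb5, Psmc3, Psmc6, Psmd4 and Psme1) and Psme4 turned to -0.21. Of the surrounding genes, Nfe2l2 turned to -0.19, Ddi2 to -0.18, Ubb to -0.20 and Uba1, at 0.22 with TMM, to 0.00 with total counts. The cause was not tested. Under the replicate block 1 surrounding gene, Ubqln1, lost its call (adjusted p = 0.065). No shared deviation was seen in same-numbered libraries, which correlated at -0.063, 0.003 and -0.034 in their deviations from the group means. Such values cannot show whether the libraries were paired in handling. Medians of subgroups moved with total counts to 0.34 (alpha), 0.23 (beta), 0.29 (base), 0.40 (lid) and 0.29 (activators), which kept their direction. Some also moved with 1 library left out. The lid median went to 0.59 without allograft replicate 1 and to 0.58 without isograft replicate 1. The alpha median went to 0.60 without allograft replicate 3. The beta median went to 0.48 without isograft replicate 1 and to 0.39 without isograft replicate 2.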
